A study of Populus davidiana with 6 samples.

Results

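Pairs of neighbouring leaf loci of Populus davidiana that face away from each other across a short interval were examined here. On chromosomes 1 to 19, the loci that hold a transcript whose identifier begins with POPTR were ordered by start, and adjacent pairs were kept in which the first locus lies on the minus strand and the second on the plus strand, with 0 to 1000 bases between them. Of 36506 adjacent pairs, 619 met these conditions on position. Both loci reached 1 FPKM (sequenced fragments scaled by transcript length and by the size of the library) in at least 3 of the 6 libraries in 264 of these, and those 264 divergent pairs, with 528 different loci, are described. Of the other 355, 220 had 1 such locus and 135 had none. No expression change entered the choice.

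The libraries are poly(A) RNA from leaves of the cultivar Palgong2, labelled drought tolerant, with 3 air-dried and 3 control samples. The seedlings had been propagated in vitro from internodes on sucrose-containing medium with an auxin and were about 6 weeks old. Air-dried plants were pulled up, cleaned of medium in sterile water and kept in air for some 10 min, and control plants carry the label control. The labels do not say whether controls underwent lifting and rinsing too, nor do they say that the triplicate leaf samples came from separate cultures, so p-values reflect only how these samples vary, in part perhaps technically. The files give no gene name or function for any locus and no genome was used here, so pairs are named by their coordinates, whose genome build the labels and headers do not state, and no sequence of an interval is shown. The leaf origin could not be checked against marker genes for the same reason. Transcripts under 500 bases held 94.3%, 48.6% and 47.8% of the summed FPKM in air-dried replicates 1, 2 and 3, against 29.8%, 89.8% and 90.3% in control replicates 1, 2 and 3.

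Where 2 genes are transcribed away from each other from nearby start sites, the interval between them holds the upstream sequence of both. Such head-to-head intervals are known in plants and other eukaryotes, and some act as bidirectional promoters, in which shared elements and open chromatin serve both genes, while in others each gene keeps a core promoter of its own. Here the air-dried and control leaves are compared to ask whether both loci of such a pair changed together over this drying. Pairs that converge (plus then minus, so that the 3′ ends face each other) or run on the same strand lie equally close without sharing an upstream interval in this way, and are set beside the divergent pairs at equal gap.

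The intervals of the 264 divergent pairs ran from 22 to 996 bases, with a median of 487.5 bases. They fell evenly over the range, with 49 of up to 200 bases, 58 of over 200 and up to 400, 56 of up to 600, 55 of up to 800 and 46 of up to 1000. Each of the 19 chromosomes held between 5 and 27 of them. In 250 pairs no other listed locus overlapped the interval, in 11 pairs 1 did and in 3 pairs 2 did. The interval depends on which transcripts are counted. Among the 259 pairs with an annotated transcript at both loci, both facing ends belonged to annotated transcripts in 75, 1 of the ends did in 118, and in 66 both ends were set by transcripts assembled from the reads. Between annotated transcripts alone the median interval was 638 bases, and 42 of these 259 pairs would exceed 1000 bases. The loci listed a median of 2 different start positions towards the interval and up to 15, and 229 of the 528 listed 1.

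The loci of divergent pairs were expressed at middling levels and their spans were ordinary. The median locus had 13.3 FPKM in air-dried and 12.3 FPKM in control leaves, against 12.2 FPKM in air-dried and 10.95 FPKM in control leaves over all 22729 tested loci. Their median genomic span was 3480.5 bases, against 3518 bases over all tested loci. Transcripts spanning under 500 bases occurred at 13 of the 528 loci (2.46%), against 6.88% of all tested loci. In both groups the loci of a pair stood at unlike levels. In air-dried leaves their log2(FPKM + 1) values differed by a median of 1.36, and in control leaves by 1.23. The control means were within 2-fold in 87 of 264 pairs (33.0%) and more than 10-fold apart in 36, and the locus with the higher mean was the same in air-dried and control leaves in 251 pairs. For convergent pairs of 0 to 1000 bases the share within 2-fold was 32.7%, and for same-strand pairs it was 30.2%. Across the 264 divergent pairs the levels of the 2 loci correlated with Pearson's r = 0.117 in air-dried and 0.157 in control leaves, against -0.026 and -0.025 across 1089 convergent pairs and -0.024 and -0.022 across 738 same-strand pairs. Over the 5 classes of interval length given above, from short to long, the divergent r in air-dried leaves was 0.173, 0.207, 0.221, -0.066 and -0.053. In control leaves it was 0.214, 0.251, 0.240, 0.026 and -0.057, and Spearman's rho was 0.142, 0.153, 0.212, 0.084 and -0.086. The other orientations varied between these classes too. Their r in control leaves ran from -0.085 to 0.115 in convergent and from -0.332 to 0.087 in same-strand pairs. The higher divergent values up to 600 bases therefore set no limit of length. These are descriptions across pairs that share libraries.

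Few loci of divergent pairs responded to drying, and the responses were small. Of the 528 loci, 17 (3.22%) rose and 6 (1.14%) fell in air-dried leaves, against 7.28% higher and 2.81% lower among all 22729 tested loci (two-sided moderated test of limma, with a trend for the mean, on log2(FPKM + 1), and a Benjamini-Hochberg adjusted p under 0.05 over every tested locus). A change of at least 2-fold was called at 1 of the 528, against 2.48% of all tested loci. The changes of the called loci lay between 0.32 and 1.11 log2 units in size. Over all 528 loci the 5th and 95th percentiles of the log2 change were -0.29 and 0.42, against -0.43 and 0.84 over all tested loci, and the median standard error was 0.12 in both sets. An unadjusted p under 0.05 was reached by 100 of the 528 (18.9%), against 26.3% of all tested loci. The groups did not overlap, with air-dried values higher, at 106 loci (20.1%), against 22.6% of all tested loci, and with air-dried values lower at 40 (7.58%), against 10.3%.

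The number of calls fell when a library was left out, and the split into higher and lower depended on scaling. A fit without 1 library has fewer samples from which to estimate the spread. A call lost in such a fit, here or below, therefore does not show by itself that the library left out carried it. Without air-dried replicates 2 and 3 and control replicates 1, 2 and 3 in turn, 3, 2, 3, 3 and 3 loci were higher, while all tested loci fell to between 3.50% and 4.48% higher in these fits. Lower loci then numbered 4, 2, 2, 4 and 2, while 1.02% to 1.39% of all tested loci were lower. Without air-dried replicate 1, 13 were higher and 8 lower, against 6.38% and 3.03% of all tested loci. After median-of-ratios scaling 5 loci were higher and 11 lower, and after quantile normalization 4 and 14, while the median log2 change over every tested locus was 0.07 in the deposited values, 0.00 after the first scaling and -0.05 after the second. For the 528 loci this median was 0.09, 0.02 and -0.03. Of all called loci, 72.2% were higher in the deposited values, 56.1% after the first scaling and 45.5% after the second. In each of the 18 settings of how the fit was made (processing and libraries) the share of loci called higher was below that of all tested loci.

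The share of called loci was below that of other loci in every class of span and of level. Among loci spanning over 1000 and up to 2000 bases, 4 of 65 in divergent pairs (6.15%) were higher and 0 lower, against 14.7% and 4.50% of 3154 other tested loci of that span. Over 2000 and up to 4000 bases, 10 of 231 (4.33%) were higher and 4 lower (1.73%), against 7.78% and 3.46% of the others. Over 4000 and up to 8000 bases the counts were 3 higher and 2 lower of 169, against 4.76% and 2.49% of the others, and none of the 23 shorter or 40 longer loci was called by limma, with 8.91% and 5.70% of other loci of those spans called. Weighted to the spans of the 528 loci, the other tested loci were higher in 7.39% and lower in 3.03% of cases, and weighted to their mean FPKM in 7.51% and 2.89%. By level, falls taken alone were more frequent than among other loci over 50 FPKM, with 4 of 67 lower (5.97%), against 3.77% of other loci at that level. No test of these differences between sets of loci was made, since loci are not replicates.

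**Figure D1:**
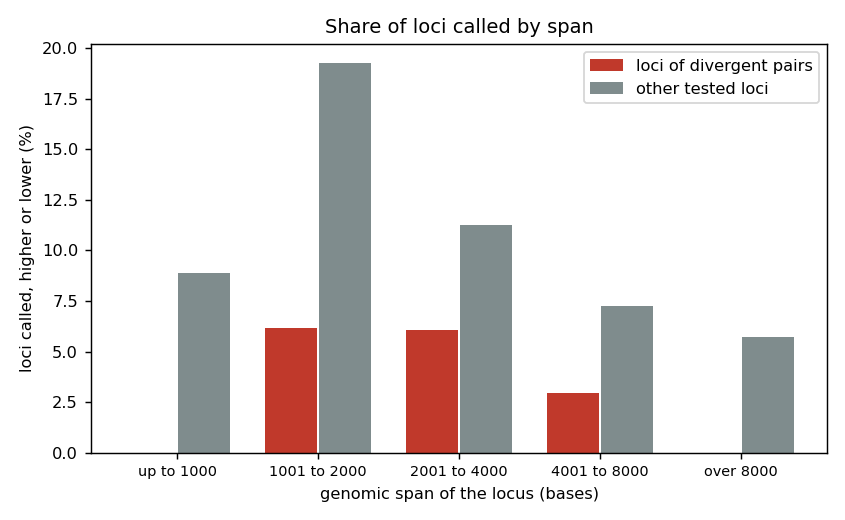
Share of loci called higher or lower in air-dried than in control leaves (y axis, %) by genomic span of the locus in bases (x axis), for loci of divergent pairs and for all other tested loci. The bars stand at 6.15% and 19.2% for spans over 1000 and up to 2000 bases, and at 6.06% and 11.2% for spans over 2000 and up to 4000 bases.

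At equal gap, loci of convergent and same-strand pairs were called more often. Counting each locus once per pair, 147 of 2178 loci in convergent pairs of 0 to 1000 bases (6.75%) were higher and 52 (2.39%) lower, and in same-strand pairs 85 of 1476 (5.76%) were higher and 28 (1.90%) lower. Same-strand pairs have longer gaps (median 665 bases) and convergent pairs shorter ones (447 bases) than divergent pairs. Weighted to the gaps of the divergent pairs, the shares were 6.82% higher and 2.39% lower for convergent and 5.89% and 2.06% for same-strand pairs. For loci called higher, the distance between divergent pairs and both other orientations was widest at the shortest gaps. Up to 200 bases, 2 of 98 loci in divergent pairs were higher (2.04%), against 8.11% in convergent and 7.55% in same-strand pairs, whereas over 800 and up to 1000 bases the shares were 5.43%, 5.81% and 5.63%. Loci called lower followed no such order. Up to 200 bases they made up 1.02% in divergent, 2.85% in convergent and 0.943% in same-strand pairs, and over 200 and up to 400 bases 0.862%, 1.15% and 4.84%. Each gap class holds few divergent calls, so an order among the classes rests on 2 to 5 higher and 0 to 2 lower loci per class.

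**Figure D2:**
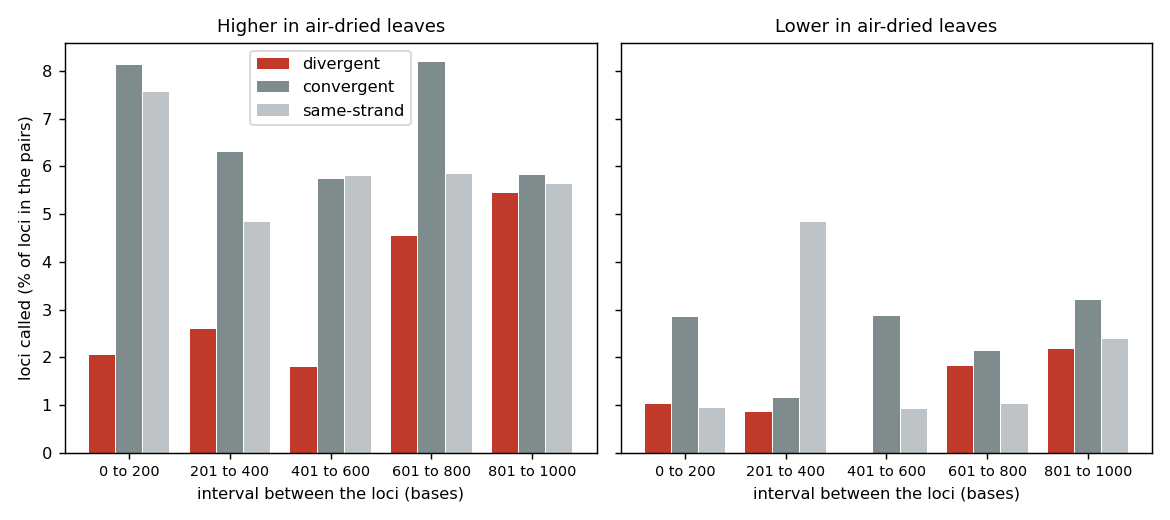
Loci called higher (left panel) and lower (right panel) in air-dried than in control leaves, as % of the loci in the pairs (y axis), by interval length in bases (x axis) and orientation of the pair. Divergent pairs stand between 1.79% and 5.43% higher, and convergent pairs between 5.73% and 8.18%.

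In no divergent pair were both loci called. Exactly 1 locus was called in 23 of 264 pairs (8.71%), against 18.1% of all 13245 adjacent pairs with both loci tested, and 241 pairs had none. Both loci were higher in 0.831% of all adjacent pairs, both lower in 0.106% and opposite in 0.37% (limma). At gaps of 0 to 1000 bases both were called higher in 4 of 1089 convergent and 4 of 738 same-strand pairs. Both were lower in 0 and 0 of these, and opposite in 1 and 2. Exactly 1 locus was called in 17.4% of the convergent and 13.7% of the same-strand pairs. At an unadjusted p under 0.05 both loci were higher in 8 divergent pairs, both lower in 3 and opposite in 1, against 3.96%, 0.898% and 2.75% of all adjacent pairs. At that limit both loci changed in the same direction in 4.17% of divergent, 3.95% of convergent and 3.52% of same-strand pairs of 0 to 1000 bases. Library weights, which give air-dried replicate 3 a weight of 7.50 and air-dried replicate 1 a weight of 0.290, brought the calls to 7 pairs with both loci higher, 4 with both lower and 1 opposite. The called locus lay on the minus strand in 10 pairs and on the plus strand in 13. Its partner had a log2 change between -0.34 and 0.41 with a median of 0.07, and adjusted p between 0.0566 and 0.986. In 16 of the 23 pairs the partner's change had the same sign as the call, while the signs were the same in 166 of all 264 divergent pairs (62.9%). In 2 of the 23 the partner's change was larger than that of the called locus.

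Changes of the joint level, the mean of log2(FPKM + 1) of the 2 loci, were called in 21 divergent pairs. Of the 264, 17 (6.44%) rose and 4 (1.52%) fell in air-dried leaves, against 11.7% and 3.03% of 13245 adjacent pairs (limma, adjusted over all adjacent pairs). At all 17 both log2 changes were above 0 and at all 4 below 0, though a joint change can be called from 1 locus alone, and 13 of the 21 held a called locus. The joint changes lay between 0.26 and 0.70 log2 units in size. The median standard error was 0.09 for divergent and for all adjacent pairs. Leaving out air-dried replicates 2 and 3 and control replicates 1, 2 and 3 in turn left 9, 5, 6, 6 and 6 pairs higher and 4, 3, 2, 3 and 2 lower. Of all adjacent pairs these fits called 6.15% to 8.06% higher and 0.966% to 1.74% lower. After median-of-ratios scaling 6 were higher and 8 lower, and after quantile normalization 3 and 11. All adjacent pairs were then called higher in 8.07% and lower in 5.89%, and after quantile normalization in 5.96% and 7.33%. Convergent pairs of 0 to 1000 bases were called higher in 11.4% and lower in 1.93%, and same-strand pairs in 9.76% and 1.08%.

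**Figure D3:**
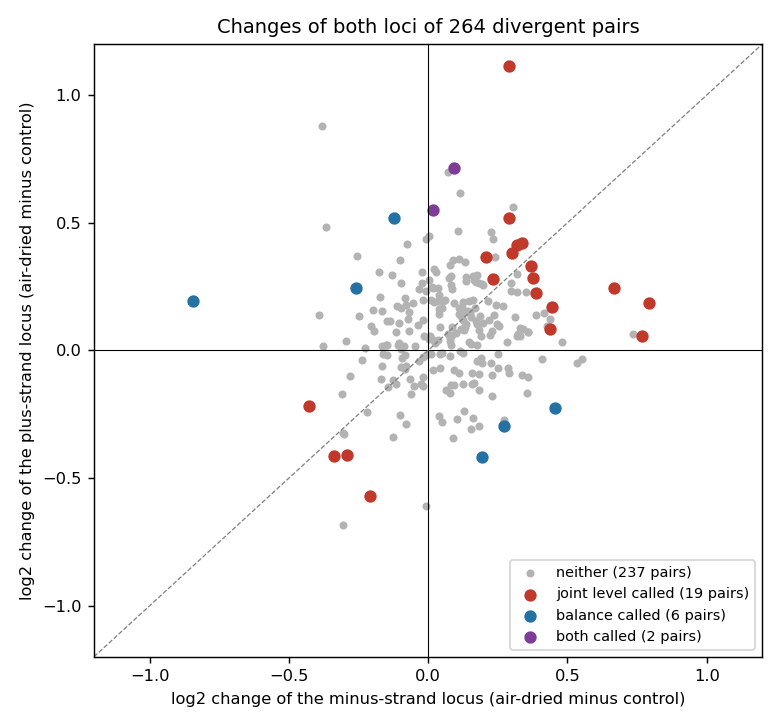
Log2 change of the minus-strand locus (x axis) and of the plus-strand locus (y axis), air-dried minus control on log2(FPKM + 1), 1 point per divergent pair, with pairs called for joint level, for balance or for both in colour and the line of equal change dashed. The 21 pairs called for joint level all lie in the quadrants where both changes have the same sign, and 1 locus exceeds a log2 change of 1.

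The largest joint rise was across an interval of 936 bases (chromosome 16, 204647 to 205582). The plus-strand locus there, POPTR_0016s00600.r1, had 29.4, 26.3 and 30.8 FPKM in air-dried leaves, against 11.3, 13.7 and 13.3 FPKM in control leaves. Its values in the air-dried libraries were all above 13.7 FPKM, the highest control value, and this was the 1 locus of the 528 with a rise of at least 2-fold (log2 change 1.11, standard error 0.10 and adjusted p = 0.00197, limma). Its minus-strand partner had 15.4, 15.4 and 13.1 FPKM in air-dried leaves, against 12.8, 9.397 and 13.5 FPKM in control leaves, so that its groups overlapped (log2 change 0.29, standard error 0.15 and adjusted p = 0.280). The joint change was 0.70 (standard error 0.08, adjusted p = 0.00148). Both the locus call and the joint call were kept with any 1 library left out, the adjusted p of the joint change reaching at most 0.0117.

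A second joint rise that was kept with any 1 library left out held a large change on the minus strand only. Across 942 bases on chromosome 8, 8964255 to 8965196, the minus-strand locus, which merges 2 annotated genes, had 10.6, 13.5 and 11.03 FPKM in air-dried leaves, against 6.83, 6.69 and 5.801 FPKM in control leaves. The groups did not overlap (log2 change 0.77, standard error 0.11 and adjusted p = 0.0116, limma). Its plus-strand partner had 11.7, 8.37 and 10.9 FPKM in air-dried leaves, against 9.48, 9.63 and 10.4 FPKM in control leaves, with air-dried replicate 2 below and the other air-dried values above the control range (log2 change 0.06, standard error 0.13 and adjusted p = 0.835). The joint change was 0.41 (standard error 0.06, adjusted p = 0.00595). With annotated transcripts alone, a setting added after the data were seen, the joint call was lost (adjusted p = 0.417).

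Neither locus was called on its own in a further pair whose joint rise was kept in the same way. Its interval of 759 bases lies on chromosome 16, 5480009 to 5480767. The minus-strand locus had 4.71, 3.58 and 3.97 FPKM in air-dried leaves, against 3.16, 2.900 and 2.98 FPKM in control leaves. The more abundant plus-strand locus had 33.5, 47.2 and 39.4 FPKM in air-dried leaves, against 28.1, 29.4 and 30.7 FPKM in control leaves. Both had air-dried values entirely above their control range, with log2 changes of 0.34 and 0.42 and adjusted p of 0.113 and 0.102. Their joint change was 0.38 (standard error 0.06, adjusted p = 0.00795). It was lost after quantile normalization (adjusted p = 0.0748) and with annotated transcripts alone (0.242).

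Joint falls were seen at 4 pairs, and those on chromosome 12 were kept with any 1 library left out. Across 785 bases (chromosome 12, 11537425 to 11538209), the plus-strand locus POPTR_0012s10840.r1 had 148, 151 and 157 FPKM in air-dried leaves, against 218, 228 and 233 FPKM in control leaves. All its air-dried values lay below the control values (log2 change -0.57, standard error 0.07 and adjusted p = 0.00589, limma). The partner on the minus strand had 18.2, 17.7 and 18.7 FPKM in air-dried leaves, against 21.01, 22.7 and 19.98 FPKM in control leaves, again with no overlap (log2 change -0.21, standard error 0.07 and adjusted p = 0.133). The joint change was -0.39 (standard error 0.06, adjusted p = 0.00587). The call of POPTR_0012s10840.r1 was lost with replicate number as a block (adjusted p = 0.0511, limma), and the joint call was kept.

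The other pair on chromosome 12 has one of the shortest intervals, 54 bases from 13789743 to 13789796. The minus-strand locus stood at 18.03, 21.3 and 20.8 FPKM in air-dried leaves, against 25.4, 26.5 and 24.8 FPKM in control leaves, and the plus-strand locus at 56.98, 61.5 and 58.6 FPKM in air-dried leaves, against 80.4, 78.4 and 78.2 FPKM in control leaves. Neither locus overlapped between groups, and the changes were alike in size (-0.34 and -0.41), although limma called the plus-strand locus alone (adjusted p = 0.0119, against 0.0566 for the minus-strand locus). The joint change was -0.38 (standard error 0.06, adjusted p = 0.0100). The call of the plus-strand locus was lost with replicate number as a block. That call was also lost without air-dried replicate 3, control replicate 1 or control replicate 3 (adjusted p = 0.0553 to 0.0712). Counting annotated transcripts alone widened the interval to 341 bases and turned the change of the plus-strand locus to 0.14 (adjusted p = 0.924), with the joint call lost (adjusted p = 0.897).

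The remaining joint falls were on chromosomes 5 and 7. At 917260 to 918002 on chromosome 5 (743 bases), the minus-strand locus had 133, 122 and 129 FPKM in air-dried leaves, against 176, 167 and 177 FPKM in control leaves (log2 change -0.43, standard error 0.07 and adjusted p = 0.0165, limma). Its plus-strand partner had 23.4, 25.5 and 28.2 FPKM in air-dried leaves, against 29.7, 31.6 and 28.8 FPKM in control leaves (log2 change -0.22, adjusted p = 0.179). The groups did not overlap at either locus, and 1 other listed locus overlaps this interval. The joint change of -0.32 (standard error 0.06, adjusted p = 0.0130) was lost without control replicate 1 or 3 (adjusted p = 0.0508 to 0.0580), and the call of the minus-strand locus without air-dried replicate 2 or 3 or control replicate 1 or 3 (0.0617 to 0.0834). After quantile normalization the joint change was -0.52 and that of the minus-strand locus -0.67, both still called (adjusted p = 0.0203 and 0.0157). On chromosome 7, at 1464492 to 1464683 (192 bases), the minus-strand locus had 2.42, 2.496 and 1.95 FPKM in air-dried leaves, against 2.65, 3.502 and 2.94 FPKM in control leaves. The plus-strand locus had 8.401, 6.099 and 7.22 FPKM in air-dried leaves, against 10.2, 9.74 and 9.72 FPKM in control leaves. Neither was called alone, and the joint change of -0.35 (standard error 0.09, adjusted p = 0.0398) was lost without any 1 of air-dried replicates 2 and 3 and control replicates 1 to 3 (adjusted p = 0.0961 to 0.130) and with no filter (0.0559).

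**Figure D4:**
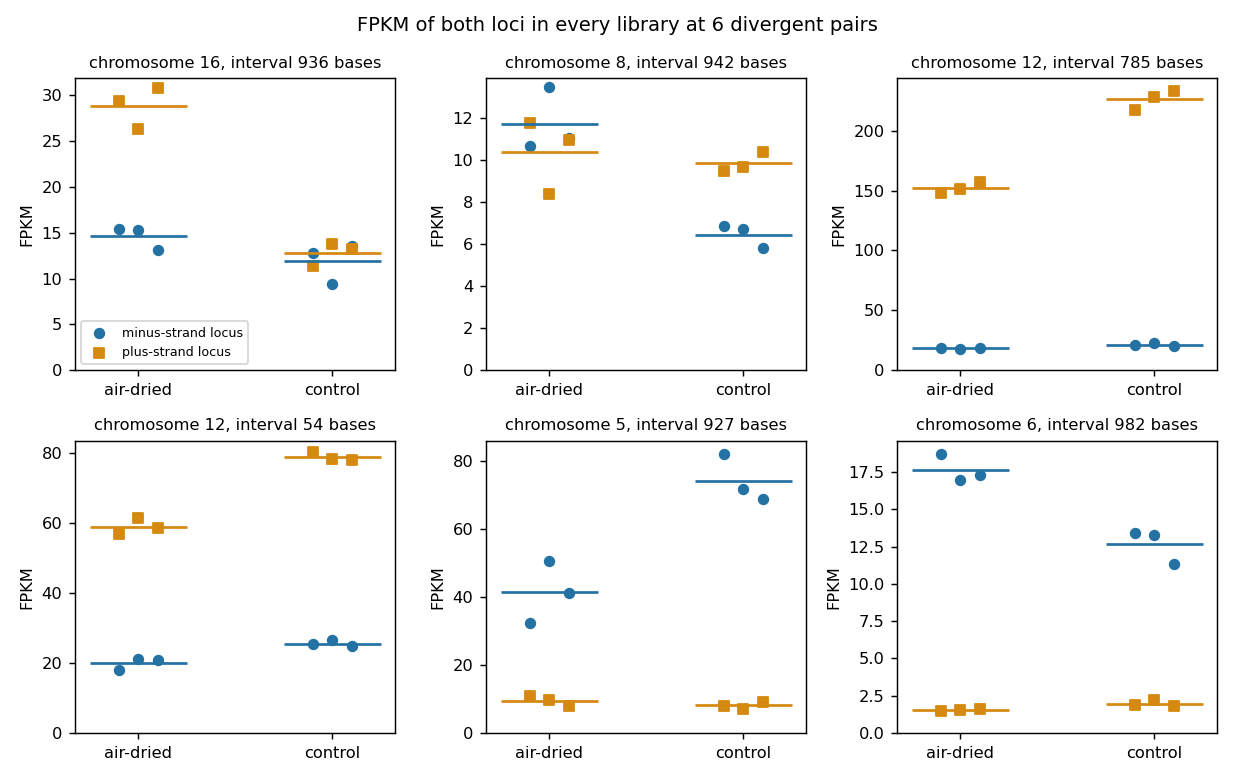
FPKM (y axis, from 0) of the minus-strand and plus-strand locus of 6 divergent pairs in each air-dried and control library, with horizontal lines at group means (n = 3 per group). On chromosome 16 the plus-strand locus stands at 26.3 FPKM or more in air-dried leaves, on chromosome 12 both loci of each pair stand lower in air-dried leaves, and on chromosomes 5 and 6 the minus-strand locus differs between groups by more than its partner.

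Further joint rises, in which no value of either locus overlapped between groups, were found on chromosomes 9, 6 and 1. Across 797 bases (chromosome 9, 11890061 to 11890857) lay the most abundant of them. The minus-strand locus had 58.5, 54.7 and 58.1 FPKM in air-dried leaves, against 45.5, 44.2 and 46.9 FPKM in control leaves, and the plus-strand locus had 171, 200.96 and 192 FPKM in air-dried leaves, against 155, 148 and 122 FPKM in control leaves. Log2 changes were 0.32 and 0.41, with no overlap at the minus-strand locus, whose call (adjusted p = 0.0300) was lost without any 1 library (0.0580 to 0.129) and after median-of-ratios and quantile scaling (0.0569 and 0.307). The plus-strand locus did not overlap either (adjusted p = 0.0871). The joint change of 0.37 (standard error 0.07, adjusted p = 0.0122) was lost without air-dried replicate 3 or control replicate 3 (0.0605 and 0.0519) and after median-of-ratios and quantile scaling (0.0535 and 0.438).

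On chromosome 6, across 793 bases from 26514731 to 26515523, the minus-strand locus had 22.2, 21.8 and 19.9 FPKM in air-dried leaves, against 15.2, 17.3 and 15.7 FPKM in control leaves. The plus-strand locus had 34.2, 33.9 and 32.8 FPKM in air-dried leaves, against 29.1, 26.9 and 30.1 FPKM in control leaves. Both stood higher in every air-dried than in any control library, with log2 changes of 0.39 (adjusted p = 0.0350) and 0.22 (0.0994). The joint change of 0.31 (standard error 0.06, adjusted p = 0.0158) was lost without air-dried replicate 2 or control replicate 1 or 3 (0.0508 to 0.0691), and the locus call without any 1 library (0.0528 to 0.126). The joint call was also lost after quantile normalization (0.121) and with annotated transcripts alone (0.200), and the locus call in both these settings (0.0995 and 0.358), after median-of-ratios scaling (0.0613) and with no filter (0.0573). On chromosome 1, the pair at 5582797 to 5583683 (887 bases) had log2 changes of 0.37 at the minus-strand locus, with 14.5 ± 1.21 FPKM in air-dried and 10.99 ± 1.12 FPKM in control leaves (mean ± SD, n = 3 per group), and 0.33 at the plus-strand locus, with 13.3 ± 0.878 FPKM in air-dried and 10.3 ± 0.313 FPKM in control leaves. Its joint change was 0.35 (standard error 0.08, adjusted p = 0.0245), lost without air-dried replicate 3 or control replicate 1 or 3 (0.0832 to 0.0953), after median-of-ratios scaling (0.0539), after quantile normalization (0.109) and with annotated transcripts alone (0.101). With annotated transcripts alone the change of the plus-strand locus, called in the deposited values (adjusted p = 0.0456), was 0.06 (adjusted p = 0.834). That locus call was also lost with no filter (0.0550), without a mean-variance trend (0.0524), after both scalings (0.119 and 0.221) and without any 1 library other than air-dried replicate 1 (0.105 to 0.153). A pair on the same chromosome at 18581093 to 18581871 (779 bases) had 9.24 ± 2.15 FPKM in air-dried and 7.27 ± 0.521 FPKM in control leaves at the minus-strand locus and 12.5 ± 1.35 FPKM in air-dried and 8.48 ± 1.44 FPKM in control leaves at the plus-strand locus. There the joint change was 0.40 (standard error 0.09, adjusted p = 0.0319), lost without air-dried replicate 3 or any control replicate (0.0757 to 0.107), with no filter (0.0685) and with annotated transcripts alone (0.1002).

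The other 10 joint rises ranged from 0.26 to 0.49 log2 units with adjusted p between 0.0200 and 0.0492. The largest of them, on chromosome 2 at 7208385 to 7208828 (444 bases), had its larger change at the minus-strand locus, which had 17.6, 16.00 and 17.97 FPKM in air-dried leaves, against 14.8, 6.87 and 8.25 FPKM in control leaves. Its groups did not overlap, but control replicate 1 lay close to the air-dried values, and the joint change of 0.49 (standard error 0.12, adjusted p = 0.0408) was lost without any 1 of the air-dried replicates, control replicate 2 or control replicate 3 (0.0739 to 0.127), with no filter (0.110) and after median-of-ratios and quantile scaling (0.0700 and 0.0894). On chromosome 10, at 19646752 to 19647066 (315 bases), the minus-strand locus had 20.97, 25.4 and 19.1 FPKM in air-dried leaves, against 15.1, 11.6 and 13.3 FPKM in control leaves (log2 change 0.67, standard error 0.14 and adjusted p = 0.0352, limma) and its partner had 6.24, 5.53 and 4.904 FPKM in air-dried leaves, against 3.52, 4.86 and 5.32 FPKM in control leaves (log2 change 0.25, adjusted p = 0.374). The joint change of 0.46 (standard error 0.09, adjusted p = 0.0200) was lost without air-dried replicate 2 or control replicate 1 or 2 (0.0602 to 0.0789), and the locus call without any 1 library (0.0616 to 0.113). Both calls were also lost after quantile normalization (0.0581 for the joint level and 0.0763 for the locus) and with annotated transcripts alone (0.182 and 0.0999), and the locus call after median-of-ratios scaling (0.0639) and with no filter (0.0955). The pairs of these paragraphs were chosen after their values were seen, since the rule for naming pairs covered joint calls only where both loci were called. Except where named, calls lost with replicate number as a block are not listed by pair, here or in later paragraphs. They are counted in the section on processing.

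A change of balance, meaning that the difference of log2(FPKM + 1) between the minus-strand and the plus-strand locus shifted with drying, was called in 8 of 264 divergent pairs (3.03%), against 11.6% of all adjacent pairs (limma, adjusted over all adjacent pairs). At gaps of 0 to 1000 bases it was called in 114 of 1089 convergent pairs (10.5%) and 58 of 738 same-strand pairs (7.86%), and weighted to the divergent gaps in 10.4% and 8.13%. The median size of the shift was 0.17 log2 units in divergent, 0.24 in convergent and 0.20 in same-strand pairs, and its median standard error was 0.16 in divergent and 0.17 in all adjacent pairs. Without air-dried replicates 1, 2 and 3 and control replicates 1, 2 and 3 in turn, 5, 0, 0, 2, 2 and 1 divergent pairs were called, so every balance call was lost without air-dried replicate 2 or 3. In the same order 10.6%, 6.01%, 5.19%, 5.40%, 6.83% and 5.22% of all adjacent pairs were called, so calls also became fewer over all pairs.

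The largest shift was across 927 bases on chromosome 5, 3548782 to 3549708. Its minus-strand locus had 32.5, 50.5 and 41.1 FPKM in air-dried leaves, against 82.1, 71.7 and 68.8 FPKM in control leaves (log2 change -0.85, standard error 0.17 and adjusted p = 0.0311, limma), a fall that left every air-dried value below every control value. The plus-strand locus had 10.8, 9.801 and 7.86 FPKM in air-dried leaves, against 8.04, 7.13 and 9.24 FPKM in control leaves, with overlapping groups (log2 change 0.19, adjusted p = 0.445). The balance changed by -1.04 (standard error 0.24, adjusted p = 0.0406). On chromosome 6, across 982 bases from 23830414 to 23831395, the minus-strand locus had 18.7, 17.00 and 17.3 FPKM in air-dried leaves, against 13.4, 13.3 and 11.3 FPKM in control leaves (log2 change 0.45, standard error 0.09 and adjusted p = 0.0294). The less abundant plus-strand locus had 1.48, 1.51 and 1.61 FPKM in air-dried leaves, against 1.904, 2.21 and 1.78 FPKM in control leaves (log2 change -0.23, adjusted p = 0.231). Here the groups did not overlap at either locus and the changes had opposite signs, and the balance changed by 0.68 (standard error 0.12, adjusted p = 0.0169).

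Opposite signs were also seen on chromosomes 14 and 10. At 5831414 to 5832294 on chromosome 14 (881 bases), the minus-strand locus had 34.5, 30.8 and 29.4 FPKM in air-dried leaves, against 29.4, 23.7 and 29.5 FPKM in control leaves. The plus-strand locus had 12.9, 11.5 and 11.1 FPKM in air-dried leaves, against 15.6, 17.1 and 15.6 FPKM in control leaves, a fall with no overlap (log2 change -0.42, standard error 0.08 and adjusted p = 0.0315, limma). The balance changed by 0.61 (standard error 0.15, adjusted p = 0.0466). On chromosome 10 at 19176054 to 19176845 (792 bases), the minus-strand locus had 13.2, 13.7 and 12.9 FPKM in air-dried leaves, against 11.3, 11.3 and 9.91 FPKM in control leaves, and the plus-strand locus had 12.6, 11.2 and 12.2 FPKM in air-dried leaves, against 15.98, 15.2 and 13.7 FPKM in control leaves. Neither was called alone (adjusted p = 0.0863 and 0.0873), each group lay outside the other at both loci, and the balance changed by 0.57 (standard error 0.11, adjusted p = 0.0242). In the control leaves the plus-strand locus was the higher of the pair in every library, and in air-dried leaves the minus-strand locus was.

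In 2 further pairs the plus-strand locus rose and the minus-strand locus did not pass the test. On chromosome 9 at 10378554 to 10378984 (431 bases), the plus-strand locus had 62.7, 74.2 and 62.6 FPKM in air-dried leaves, against 48.3, 46.3 and 43.2 FPKM in control leaves (log2 change 0.52, standard error 0.09 and adjusted p = 0.0228, limma). On the minus strand the values were 173, 189 and 182 FPKM in air-dried leaves, against 216, 168 and 212 FPKM in control leaves, with overlapping groups, and the balance changed by -0.64 (standard error 0.15, adjusted p = 0.0385). On chromosome 6 at 10379302 to 10380014 (713 bases), the plus-strand locus had 11.5, 10.1 and 11.4 FPKM in air-dried leaves, against 6.78, 5.103 and 7.16 FPKM in control leaves (log2 change 0.71, standard error 0.13 and adjusted p = 0.0246) and the minus-strand locus had 8.23, 7.31 and 6.56 FPKM in air-dried leaves, against 6.58, 6.18 and 7.81 FPKM in control leaves. The balance changed by -0.62 (standard error 0.14, adjusted p = 0.0341), and the same pair was called for a joint rise of 0.40 (standard error 0.11, adjusted p = 0.0469), lost in 5 of the fits that left out 1 library, after median-of-ratios and quantile scaling (adjusted p = 0.0721 and 0.0883), with no filter (0.102) and with a pseudocount of 0.1 (0.0564). Over the 6 pairs of these 3 paragraphs, which a rule for naming pairs selected by size, every balance call was lost in at least 4 of the 6 fits that left out 1 library, with adjusted p up to 0.133, and 4 to 6 such fits ended the calls of the single loci named in them. With no filter the calls of those 5 loci were lost too, and so were the balance calls of the pairs on chromosomes 5, 9 and 14 (adjusted p = 0.103, 0.0588 and 0.0723). A pseudocount of 0.1 ended the balance calls on chromosomes 5 and 14 (0.0541 and 0.0538) and quantile normalization the one on chromosome 14 (0.0530). With annotated transcripts alone those across 982 bases on chromosome 6 (0.515) and on chromosomes 9 and 14 (0.248 and 0.107) were lost. The locus calls of the same pairs were lost in that setting too. After quantile normalization the locus calls across 982 bases on chromosome 6 and on chromosome 9 were lost, the latter also after median-of-ratios scaling.

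In a pair also chosen after its values were seen, 1 locus fell, in a call kept with any 1 library left out, and its partner did not pass the test. Across 346 bases on chromosome 17, 3751952 to 3752297, the plus-strand locus had 21.05, 20.2 and 19.1 FPKM in air-dried leaves, against 29.4, 31.8 and 32.6 FPKM in control leaves (log2 change -0.61, standard error 0.07 and adjusted p = 0.00540, limma). The air-dried values all lay below the control values. Its partner had 15.3, 13.5 and 10.4 FPKM in air-dried leaves, against 13.5, 10.7 and 15.3 FPKM in control leaves, with a log2 change of -0.01 (adjusted p = 0.986). The balance of this pair changed by 0.60 (standard error 0.17, adjusted p = 0.0756), which did not pass the test. With replicate number as a block the call of the plus-strand locus was lost (adjusted p = 0.0508, limma).

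None of the 3 pairs in which both loci were most abundant was called by limma. The pair with the highest lower member, on chromosome 13 at 1650171 to 1650477 (307 bases), had 314, 361 and 333 FPKM in air-dried leaves, against 447, 407 and 395 FPKM in control leaves at the minus-strand locus. The plus-strand locus had 106, 148 and 132 FPKM in air-dried leaves, against 171, 182 and 129.6 FPKM in control leaves, and the joint change was -0.31 (standard error 0.12, adjusted p = 0.124). On chromosome 5 at 3408130 to 3408572 (443 bases), the minus-strand locus had 82.1, 83.4 and 75.3 FPKM in air-dried leaves, against 102, 84.1 and 115 FPKM in control leaves. Its plus-strand partner had 234, 233 and 224 FPKM in air-dried leaves, against 279.6, 256 and 244 FPKM in control leaves, with every air-dried value of both loci below the control values, and the joint change was -0.24 (standard error 0.08, adjusted p = 0.0878). On chromosome 17 at 14052008 to 14052969 (962 bases), levels averaged 82.4 ± 32.6 FPKM in air-dried and 87.4 ± 22.6 FPKM in control leaves at the minus-strand locus and 230.3 ± 9.22 FPKM in air-dried and 219 ± 10.7 FPKM in control leaves at the plus-strand locus (SD, n = 3 per group). There the joint change was -0.02 (standard error 0.14, adjusted p = 0.932).

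The shortest interval, 22 bases on chromosome 1, 26510784 to 26510805, separated loci of which 1 was called. Its minus-strand locus had 21.1, 22.7 and 22.4 FPKM in air-dried leaves, against 16.7, 16.8 and 17.5 FPKM in control leaves (log2 change 0.36, standard error 0.06 and adjusted p = 0.0225, limma), with no overlap between groups. The plus-strand locus had 61.04, 88.9 and 73.9 FPKM in air-dried leaves, against 92.7, 75.05 and 71.7 FPKM in control leaves, with overlapping groups (log2 change -0.10, adjusted p = 0.754). The balance changed by 0.46 (standard error 0.17, adjusted p = 0.142), which did not pass the test, and the locus call was lost without air-dried replicate 2 or 3 or any control replicate (0.0702 to 0.102), after median-of-ratios and quantile scaling (0.08 and 0.144) and with annotated transcripts alone (0.282). At the longest interval, 996 bases on chromosome 18, 3556727 to 3557722, the minus-strand locus averaged 1.32 ± 0.142 FPKM in air-dried and 2.08 ± 0.782 FPKM in control leaves and the plus-strand locus 28.5 ± 0.354 FPKM in air-dried and 28.2 ± 2.55 FPKM in control leaves (SD, n = 3 per group), and neither was called.

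Without regard to calls, the changes of the 2 loci of a divergent pair had the same sign in 166 of 264 pairs (62.9%), with both above 0 in 130 and both below 0 in 36. The share was 53.7% of 1089 convergent and 57.6% of 738 same-strand pairs of 0 to 1000 bases. Both changes were above 0 in 430 of these convergent and 322 of these same-strand pairs, and both below 0 in 155 and 103. Such a share also grows when most loci change in the same direction, whether or not they are partners. No share expected from this was worked out, so the shares do not measure agreement of partners alone. These shares moved with the scaling. After quantile normalization the shares were 55.3% of divergent, 51.9% of convergent and 54.5% of same-strand pairs, and after median-of-ratios scaling 57.2%, 51.1% and 53.9%. Across pairs the log2 changes correlated with Pearson's r = 0.142 and Spearman's rho = 0.146 in divergent, 0.0246 and 0.0376 in convergent and 0.0340 and 0.106 in same-strand pairs. Without single libraries the divergent r lay between 0.0857 (without control replicate 2) and 0.155 (without control replicate 1). By gap it was 0.192, 0.128, -0.0192, 0.402 and 0.0398 over the 5 classes, in order of length, without a trend. All these are descriptions over pairs that share the 6 libraries, and no test of the difference between orientations was made.

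Joint movement was also looked for between replicates of a group. Deviations of the 2 loci from their group means, taken over the 6 libraries, correlated with r = 0.0807 across divergent, 0.0149 across convergent and 0.0438 across same-strand pairs. Within single libraries the divergent values were all below the pooled one, at 0.0761, 0.0676 and 0.0169 in air-dried replicates 1, 2 and 3, against 0.0429, 0.0346 and 8.94e-05 in control replicates 1, 2 and 3. For convergent pairs they lay between -0.0392 and 0.056, and for same-strand pairs between -0.0705 and 0.0731, so the pooled values give no order among the orientations. Groups that did not overlap at both loci, with both higher in air-dried leaves, were found in 16 divergent pairs (6.06%), against 5.93% of all adjacent pairs. Both were lower in 6 (2.27%), against 1.6%, and the directions were opposite in 4 (1.52%), against 4.59%. In convergent pairs of 0 to 1000 bases opposite directions made up 4.22%, and in same-strand pairs 2.71%. Both loci were higher in 5.88% of these convergent and 5.42% of these same-strand pairs, and both lower in 1.19% and 0.813%.

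The limit of 1000 bases was one of the conditions on position. Of 29 pairs with intervals over 900 and up to 1000 bases, 2 were called for joint level and 2 for balance, and of 21 over 1000 and up to 1100 bases, 1 and 0 were. In the 249 divergent pairs over 1000 and up to 2000 bases, 4.22% of loci were higher and 1.61% lower, 7.63% of pairs were called for joint level and 5.22% for balance. In the 2663 divergent pairs with more than 2000 bases, the shares were 7.00%, 3.12%, 13.9% and 11.9%, against 3.22%, 1.14%, 7.95% and 3.03% at 0 to 1000 bases. Same-strand pairs also had higher shares beyond 2000 bases (8.74% higher and 3.14% lower loci) than at 0 to 1000 bases (5.76% and 1.90%), and so did convergent pairs (9.07% and 3.66%, against 6.75% and 2.39%).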

How the data were processed

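Leaf poly(A) RNA of 3 air-dried and 3 control samples was read as 100 bp paired ends, per the labels' protocols. FPKM per transcript stand in the deposited files, per the file headers, for 112919 transcripts (45773 annotated, 67146 assembled) with position and strand. TopHat and Cufflinks are named in the submitters' processing notes, without versions, and no source used here gives the genome build, the annotation or whether the kit kept strand. The files hold no counts, so absolute depth is unknown. Relative depth, read from the smallest FPKM steps of low loci, was 0.908 to 1.01 times that of control replicate 1. Transcripts under 500 bases held 29.8% to 94.3% of a library's summed FPKM.

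FPKM were summed per locus, and the 22729 of 40537 loci that reached 1 FPKM in 3 or more libraries were tested. Loci, pair means and pair differences were compared on log2(FPKM + 1) with limma 3.58.1 in R 4.3.3, adjusted over all loci or over all 13245 adjacent pairs. This scale understates changes of weakly expressed loci. The scripts were tested on simulated data. The rule for naming pairs asked for pairs with both loci called (none), the 6 largest balance calls, the 3 pairs with the highest lower control mean and the shortest and longest interval. The pairs and lists were chosen with earlier results of these data known. Alternatives changed the pseudocount (0.1 and 5), the filter (none, 5 FPKM), scaling, replicate block, trend, library weights, single libraries, transcripts and loci. Counting annotated transcripts alone was added after the data were seen. Python 3.11.15, scipy 1.17.1 and matplotlib 3.10.9 were also used. No motif search was run, since no genome of the files' build was at hand.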

Additional observations from a re-analysis of the deposited data

How the results depend on the processing

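In the deposited values 17 loci of divergent pairs were higher and 6 lower, 17 pairs were higher and 4 lower in joint level, and 8 changed balance. Leaving out 1 library gave 2 to 13 loci higher and 2 to 8 lower, 5 to 12 pairs higher and 2 to 5 lower in joint level, and 0 to 5 balance calls. Of all tested loci these fits called 3.50% to 6.38% higher and 1.02% to 3.03% lower. Of all adjacent pairs they called 7.11% to 14.6% for joint level and 5.19% to 10.6% for balance. Median-of-ratios scaling gave 5 and 11 loci and 6 and 8 pairs, quantile normalization 4 and 14 loci and 3 and 11 pairs, and no filter 8 higher loci. Of all tested loci, 5.79% were higher and 4.54% lower after the first scaling, and 4.38% and 5.24% after the second. With no filter 3.15% of all loci were higher, against 1.52% of the 528. Library weights gave 79 and 31 loci, 48 and 15 pairs and 22 balance calls, with both loci higher in 7 pairs, both lower in 4 and opposite in 1. Both were lower in 1 pair with a filter of 5 FPKM, with POPTR transcripts alone and without loci holding transcripts under 500 bases. A pseudocount of 0.1 gave 5 balance calls (1.89%), against 10.5% of all adjacent pairs. Annotated transcripts alone gave 3 and 3 loci, 1 and 1 pairs and 1 balance call among 157 divergent pairs. Of the loci of these 157 pairs 0.955% were higher and 0.955% lower, against 5.35% and 1.86% of all tested loci. Joint level was called in 1.27% and balance in 0.637% of these pairs, against 5.75% and 3.93% of all adjacent pairs. This setting turned the sign at the plus-strand loci of a pair on chromosome 3 (to -0.65) and one on chromosome 12 (to 0.14). It also turned that of a balance on chromosome 3 (to 0.11). None of these changes passed the test there (adjusted p = 0.640, 0.924 and 0.954, limma). The cause was not tested. Without counts no limit from depth could be set for a single locus, and 20 of the 528 loci fell below 1 FPKM in some library.

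The replicate block gave 3 loci higher and 0 lower, 6 pairs higher and 3 lower in joint level and 1 balance call (limma, with p adjusted as before). Of all tested loci it called 3.31% higher and 0.770% lower. Of all adjacent pairs it called 10.2% for joint level and 6.46% for balance. It kept 3 of the 23 locus calls, 9 of the 21 joint calls and 0 of the 8 balance calls, so its balance call was at another pair. Deviations of same-numbered libraries correlated at 0.09, 0.19 and -0.12, so the numbers were not taken to pair the samples.

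The share of the same sign in divergent pairs was 66.5% with the filter of 5 FPKM, 57.2% after median-of-ratios scaling, 55.3% after quantile normalization, 57.6% with library weights, 52.9% with annotated transcripts alone, 59.04% over 1000 and up to 2000 bases and 58.7% to 65.2% without 1 library. Pearson r of divergent pairs was 0.184 after quantile normalization, 0.0608 with annotated transcripts alone, 0.196 over 1000 and up to 2000 bases and 0.0857 to 0.155 without 1 library. The share of the same sign in convergent pairs was 51.1% after median-of-ratios scaling, 51.9% after quantile normalization, 52.2% with library weights, 50.8% with annotated transcripts alone, 52.2% up to 500 bases, 56.01% over 1000 and up to 2000 bases and 52.3% to 56.7% without 1 library. Pearson r of convergent pairs was 0.0119 with a pseudocount of 0.1, 0.01304 with a pseudocount of 5, 0.00896 with the filter of 5 FPKM, 0.0383 with library weights, 0.0363 without loci holding short transcripts, -0.0168 with annotated transcripts alone, -0.00209 up to 500 bases and 0.00666 to 0.0376 without 1 library. The share of the same sign in same-strand pairs was 53.9% after median-of-ratios scaling, 54.5% after quantile normalization, 51.97% with annotated transcripts alone, 53.7% up to 500 bases, 54.9% over 1000 and up to 2000 bases and 53.8% to 60.7% without 1 library. Pearson r of same-strand pairs was -0.00849 with annotated transcripts alone, 0.0846 up to 500 bases and 0.00817 to 0.0585 without 1 library.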

Other observations

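Pairs in which 1 locus stayed under the expression limit were left out above. Of 220 such divergent pairs, 8 of the tested loci (3.64%) rose and 3 (1.36%) fell with drying (limma, adjusted p under 0.05 over all tested loci), 1 of them by at least 2-fold. In convergent pairs of 0 to 1000 bases with 1 tested locus, 69 of 1058 (6.52%) were higher and 37 (3.50%) lower, and in same-strand pairs 42 of 867 (4.84%) were higher and 18 (2.08%) lower. The untested partner was listed at 0 in all 6 libraries in 137 of the 220 divergent pairs. Divergent loci that overlap, 243 pairs with both tested, had 6.17% of loci higher and 2.06% lower. There both loci were higher in 5 pairs, and reads of overlapping loci cannot be assigned with certainty.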
